A study of Drosophila melanogaster with 6 samples.

Results

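The seminal fluid protein genes of *Drosophila melanogaster* were followed through 6 RNA-seq libraries made from adult testes. The members are all genes of the count files whose FlyBase symbol is Acp or Sfp followed by a digit, together with SP (sex peptide) and Dup99B. This rule gave 49 of the 17559 genes counted. Of the 49, 2 match by symbol alone: in Acp1 and Acp65Aa the letters stand for adult cuticle protein, and the other 47 carry a symbol given to proteins of the seminal fluid.

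Seminal fluid proteins are made mainly by the secretory cells of the paired male accessory glands, with further contributions from the ejaculatory duct and the ejaculatory bulb. They pass to the female with the sperm during mating. There they raise egg laying, lower receptivity to further males, aid sperm storage and form the mating plug. The germ cells of the testis are not their usual source, so their level in a testis library is read here as the level in a pool of dissected tissue and not in one cell type. In such bulk samples, fewer cells of a type and less RNA per cell cannot be told apart.

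The control flies were act5C-GAL4>w1118 and the test flies were act5C-GAL4>UAS-miR-2b-1, with 3 libraries in each group. All were males aged 3 to 5 days from crosses kept at 28 °C, and both groups carry the Act5C-GAL4 driver, which is active in most cells rather than in the testis alone. The UAS transgene is of the UASp type, and 1 passage of the study gives OreR instead of w1118 as the control parent, so the effect of the parental stock and that of the transgene cannot be told apart. Each library is a pool of many testes, and nothing given for the samples says whether the pools came from separate crosses, so p-values measure only the spread between these pools. Total counts on genes were 18047619 to 20282355 in the control and 21202512 to 27789620 under overexpression.

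The labelled tissue was checked with lists of marker genes. Of 17 germ cell markers, 15 were found by name, none of them at 0, and their summed level was 13588 to 15052 CPM in the control and 12135 to 13726 CPM under overexpression (CPM is the count scaled to a library total of 1e+06). The 6 markers of hub and cyst cells summed to 94.7 to 99.2 CPM in the control and 99.1 to 122 CPM under overexpression. None of the germ, hub or cyst cell markers was called in the test described below. An unadjusted edgeR p under 0.05 was reached by 5 of the 15 germ cell markers, against 14.7% of all genes. It was reached by 1 of the 6 hub and cyst cell markers. The 6 muscle sheath markers found by name summed to 232 to 390 CPM in the control and 201 to 218 CPM under overexpression. Mhc, 1 of them, was lower (edgeR adjusted p = 0.00470), and 4 of the 6 had an unadjusted edgeR p under 0.05. The 3 fat body markers found summed to 63.6 to 126 CPM in the control and 72.2 to 94.6 CPM under overexpression. The part of sheath or fat body tissue in the results was not tested.

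The 49 members together took 1.03% of the counts in control replicate 1, 0.0185% in control replicate 2 and 0.627% in control replicate 3. Under overexpression they took 0.0492%, 0.138% and 1.14% in replicates 1, 2 and 3. The exact 95% binomial interval of the smallest of these shares was 0.0180 to 0.0191%, and such intervals cover counting error only. Control replicate 1 thus held 55.4 times the summed CPM of control replicate 2, and overexpression replicate 3 held 23.2 times that of overexpression replicate 1. The means were 5579 ± 5083 CPM in the control and 4431 ± 6067 CPM under overexpression (SD, n = 3 each), and the ranges of the groups overlapped.

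**Figure D1:**
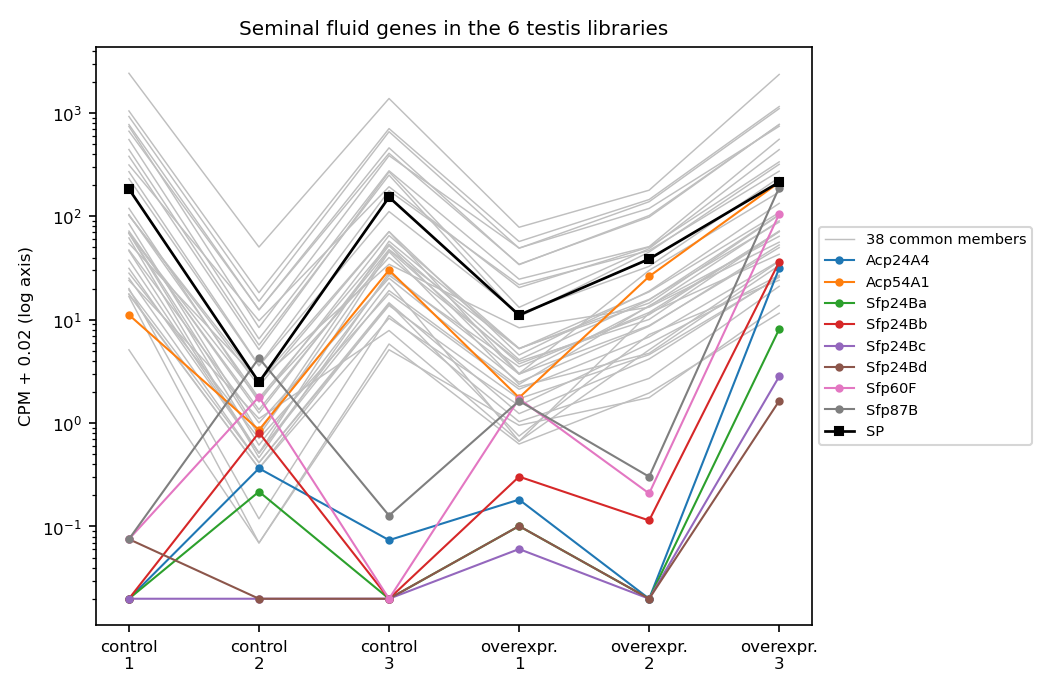
CPM of seminal fluid members (log axis, 0.02 added) in the 3 control and 3 miR-2b-1 overexpression libraries. Grey lines are the 38 members with a mean of at least 1 CPM outside the set of 8, SP among them is drawn again in black with squares, and coloured lines are all 8 members more than 8-fold higher in overexpression replicate 3 than in control replicate 1, whatever their mean.

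Sex peptide, the product of SP (FBgn0003034, chromosome 3L, 13301635 to 13301922), changes the behaviour and egg laying of mated females. SP had 184, 2.47 and 153 CPM in control replicates 1, 2 and 3, and 11.1, 38.7 and 214 CPM under overexpression. Control replicates 1 and 3 and overexpression replicate 3 were high and the other libraries low, so both groups held high and low pools. Acp26Aa (FBgn0002855, chromosome 2L, 5892883 to 5893896) encodes ovulin, which stimulates ovulation. It showed 667, 12.5 and 408 CPM in the control and 34.4, 98.5 and 775 CPM under overexpression, with the same pools high. Acp36DE (FBgn0011559, chromosome 2L, 18356047 to 18359028), needed for sperm storage, was the member with most counts, at 2422, 50.5 and 1381 CPM in the control and 78.5, 179 and 2360 CPM under overexpression. Again the lowest level was that of control replicate 2.

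This order of the libraries was shared widely. In 38 of the 49 members the 3 highest libraries were control replicates 1 and 3 and overexpression replicate 3, followed in turn by overexpression replicate 2, overexpression replicate 1 and control replicate 2. Of all 49, 41 were highest in overexpression replicate 3, 7 in control replicate 1, and 1 had no counts. A mean level of at least 1 CPM was reached by 44 members. Of these, 6 belong to a set of 8 members, described below, that were more than 8-fold higher in overexpression replicate 3 than in control replicate 1, and the remaining 38 are called the common members. The common members are not the same 38 genes as those with the shared order: 37 are in both, Sfp93F is common without having that order, and the cuticle gene Acp1 has the order at a level under 1 CPM. The division was made after the values had been seen.

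The ratios between libraries were then compared over the 38 common members. On the log2 scale, with 0.5 count added, their ratio of overexpression replicate 3 to control replicate 1 had a median of 0.12 and lay between -0.53 for Sfp79B and 1.42 for Sfp33A4. The common members had been chosen on this ratio, so its narrow range is no finding. The ratio of control replicate 1 to control replicate 2 had a median of 5.93 and lay between 4.40 for Sfp24F and 7.82 for Sfp79B. Sfp79B had 1 count in control replicate 2, so the upper end of that range is poorly determined. From overexpression replicate 3 to overexpression replicate 1 the log2 ratio lay between 2.75 and 6.01, with a median of 4.36. It varied most between the libraries poorest in these genes: from overexpression replicate 1 to control replicate 2 it lay between -0.73 and 3.69, with a median of 1.69 and an SD of 0.856 over members. Between the highest and the lowest library, the log2 ratio of a common member was 4.46 to 8.41, with a median of 6.19. No count was added for this last ratio, and its upper end is again Sfp79B, from 1 count in control replicate 2.

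**Figure D2:**
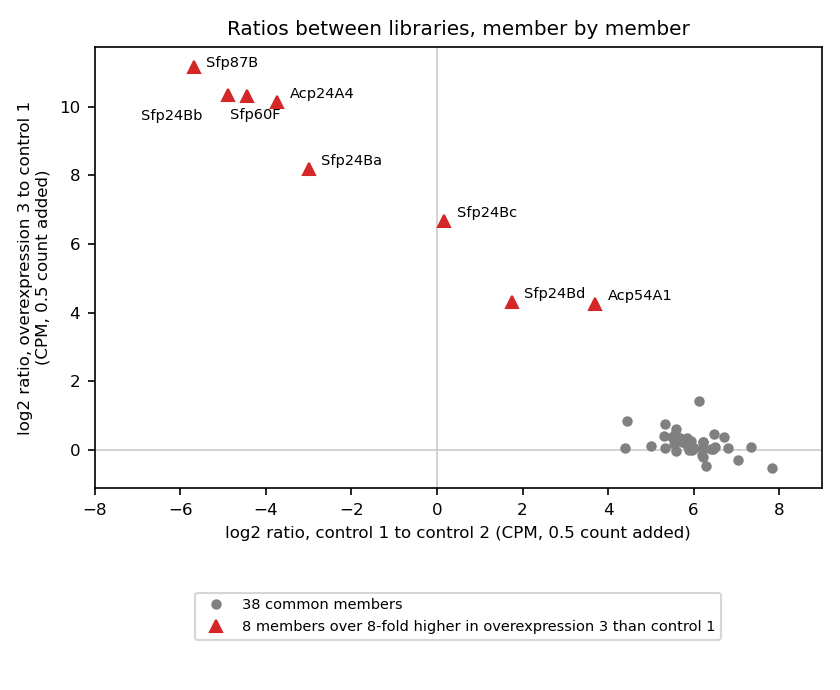
Each point is a member, placed by its log2 ratio of control replicate 1 to control replicate 2 (horizontal) and of overexpression replicate 3 to control replicate 1 (vertical), with 0.5 count added. The 38 common members lie in a compact cloud between 4.40 and 7.82 on the horizontal axis, and the 8 members marked by triangles lie outside it.

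Levels of different genes were compared per kilobase of exon, as mean CPM over the 6 libraries. The leading members were Acp53C14b (884 CPM per kb), Acp53Ea (767), Acp62F (713), Acp53C14a (683) and Acp33A (569), followed by SP (452), Acp63F (446), Acp36DE (369), Acp26Aa (347) and Sfp26Ad (252). Acp62F encodes a protease inhibitor. Acp53C14b ranked first in control replicates 1, 2 and 3 and in overexpression replicate 3, and second in the remaining libraries, where Acp62F was first. Neighbours in the order changed places between libraries, with SP ranked 5 to 10 and Acp36DE 5 to 14, so the order of such neighbours did not hold in every library. Acp53C14b (FBgn0034153) itself had 1047, 18.2 and 707 CPM in the control and 57.1, 145 and 1155 CPM under overexpression.

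Lower levels per kilobase were found for Acp76A, a member of the serpin family of protease inhibitors (204 CPM per kb), Dup99B, a relative of sex peptide made in the ejaculatory duct (205), and Acp29AB, a lectin involved in sperm storage (42.5). Acp26Ab, the neighbour of Acp26Aa, had 110 CPM per kb. At the lower end of the common members stood Sfp33A4 (18.2) and Sfp38D (7.54). The 10 members with most counts held 70.7 to 80.4% of all member counts, depending on the library.

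Shares of the member counts remove the difference between pools in the summed level by construction, so only differences between members are left. The members given next are common members. Outside them, Sfp87B took 0.000539, 2.29 and 0.00171% of the member counts in the control and 0.329, 0.0205 and 1.67% under overexpression. Acp26Aa took 6.49, 6.73 and 6.50% of the member counts in the control and 6.98, 7.12 and 6.79% under overexpression, although its CPM differed by 5.96 on the log2 scale between overexpression replicate 3 and control replicate 2. SP took 1.79, 1.33 and 2.45% in the control and 2.25, 2.80 and 1.88% under overexpression, and these ranges overlapped. Acp62F took 7.22, 4.52 and 6.17% in the control and 10.03, 8.63 and 6.52% under overexpression, also with overlap.

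Acp36DE, the member with the largest share, had 23.6% (exact 95% interval 23.4 to 23.8), 27.2% (25.8 to 28.7) and 22.02% (21.8 to 22.3) of the member counts in control replicates 1, 2 and 3. Under overexpression its share was 15.9% (15.3 to 16.6), 12.9% (12.6 to 13.3) and 20.7% (20.5 to 20.8). Every overexpression library lay below every control library, by a small margin in replicate 3. Shares of this kind did not overlap between the groups for 7 of the 49 members (14.3%), with Acp36DE lower under overexpression and Acp26Aa, Sfp23F, Sfp33A2, Sfp33A4, Sfp35C and Sfp51E higher. Shares of the member counts have no counterpart among other genes, so nothing is read from this count.

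**Figure D3:**
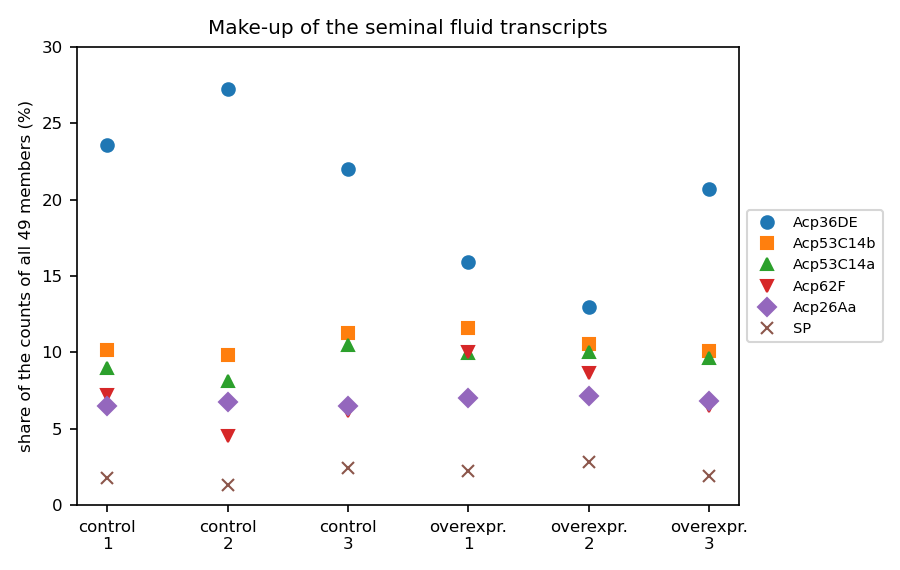
Share of the counts of all 49 members (percent, axis from 0) taken by 6 of them in each library. The share of Acp36DE is 22.02 to 27.2% in the control and 12.9 to 20.7% under overexpression, while that of Acp26Aa stays at 6.49 to 7.12% throughout.

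The 8 members outside the common pattern were Sfp24Ba, Sfp24Bb, Sfp24Bc, Sfp24Bd, Acp24A4, Sfp60F, Sfp87B and Acp54A1. Sfp87B (FBgn0259975, chromosome 3R, 12273126 to 12273521) had 1, 86 and 2 counts in the control libraries in order of replicate, and 40, 6 and 5285 under overexpression. Its highest control library was thus replicate 2, the one lowest for SP, and control replicates 1 and 3, rich in SP, held almost none of it. Sfp60F (FBgn0259968, chromosome 2R, 25172245 to 25172695) had 1, 36 and 0 counts in the control and 42, 4 and 2922 under overexpression, with high and low libraries in the same places. Sfp24Bb had 0, 16 and 0 counts in the control and 7, 2 and 1007 under overexpression. Acp24A4 had 0, 7 and 1 counts in the control and 4, 0 and 874 under overexpression, and Sfp24Ba had 0, 4 and 0 and then 2, 0 and 225. In Sfp24Bc and Sfp24Bd, 78 and 45 counts were found in overexpression replicate 3 and at most 2 in any other library, so their order among the other libraries could not be read at this depth.

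The 8 were chosen on the values given next, which are a description. Among them, the log2 ratio of overexpression replicate 3 to control replicate 1 was 4.26 for Acp54A1, the member nearest the dividing line, and 4.30 to 11.16 for the others. Just outside stood Acp1, the cuticle gene, at 1.52 from 3 and 15 counts, and Sfp33A4 at 1.42. Together the 8 held 0.110, 4.41 and 0.485% of the member counts in the control, by replicate number, against 1.16, 1.94 and 5.16% under overexpression.

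Genes of the ejaculatory bulb, which makes proteins of the mating plug, were set beside these members. EbpII, an ejaculatory bulb protein gene on the list of duct and bulb genes, had 1, 52 and 1 counts in the control and 31, 6 and 4485 under overexpression. Ebp, its companion on the list, had 35, 235 and 16 counts in the control and 128, 70 and 10828 under overexpression. Both were highest in overexpression replicate 3 and next highest in control replicate 2, as Sfp87B was. The other 4 genes of the list did not have this order. Est-6, an esterase gene of the ejaculatory duct, had 35.7, 7.20 and 28.2 CPM in the control and 8.22, 20.3 and 279 CPM under overexpression. Gld, which encodes glucose dehydrogenase, had 22.5, 2.96 and 4.46 CPM in the control and 4.33, 5.19 and 27.1 CPM under overexpression. In both, as in Anp described below, control replicate 1 came second and control replicate 2 was low. EbpIII had 149 to 192 CPM in the control and 147 to 264 CPM under overexpression. The whole list of 6 duct and bulb genes summed to 192 to 358 CPM in the control and 171 to 1364 CPM under overexpression, the last value in replicate 3, and none of the 6 was at 0. On chromosome 2R, EbpII (25173568 to 25174230) begins 872 bases beyond Sfp60F and Ebp (25175126 to 25176715) follows after a further 895 bases, all on the minus strand with 0 counted genes between. The part of bulb or duct tissue in the level of the 8 members was not tested.

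Acp54A1 (FBgn0083936) and Dup99B (FBgn0250832) were compared with SP library by library. Acp54A1 had 11.1, 0.838 and 30.3 CPM in the control and 1.74, 26.2 and 213 CPM under overexpression. Overexpression replicate 2, poor in SP, exceeded control replicate 1, rich in SP. Dup99B had 1841, 51 and 1323 counts in the control and 74, 636 and 4782 counts under overexpression. As a share of the member counts, Dup99B was lowest in overexpression replicate 1 (0.609%) and highest in replicate 2 (2.17%), where SP also had its highest share. Dup99B had the library order of SP, but its log2 ratio of overexpression replicate 3 to overexpression replicate 1 was 5.83, against 4.27 for SP. Anp, the gene of the antibacterial peptide andropin of the ejaculatory duct, had 106, 3.70 and 39.7 CPM in the control and 2.92, 39.9 and 242 CPM under overexpression. Anp was lowest of all in overexpression replicate 1, and its level in overexpression replicate 2 was about that in control replicate 3. Sfp93F, the common member with a different order, had 24.0, 1.08 and 7.85 CPM in the control and 0.648, 11.6 and 43.0 CPM under overexpression, and was likewise lowest in overexpression replicate 1.

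The positions of the genes were taken from the Ensembl annotation of the BDGP6 assembly, in dm6 coordinates. Of the 49 members, 24 lie on chromosome arm 2L, 8 on 2R, 10 on 3L and 7 on 3R. None lies on the X chromosome, which holds 2600 of the counted genes, or on chromosomes 4 and Y. The genes are short, with a median coding length of 297 bases against 1173 for all counted protein-coding genes, and 44 of the 49 have at most 2 exons. Introns of another gene hold 14 of them.

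Several members are close neighbours. Acp26Aa and Acp26Ab are 20 bases apart on the minus strand. On 2R, Acp53C14a, Acp53C14b, Acp53Ea and Acp53C14c follow each other with gaps of 224, 342 and 440 bases, again on the minus strand, and Acp53C14c was the lowest of the 4, at 91.4 CPM per kb. Sfp24Ba, Sfp24Bd, Sfp24Bb and Sfp24Bc (chromosome 2L, 3667977 to 3670581) follow each other with gaps of 139, 126 and 355 bases inside an intron of Drgx, on the opposite strand to it. All 4 belong to the set of 8 more than 8-fold higher in overexpression replicate 3 than in control replicate 1. Acp24A4 on the same arm (3693184 to 3693905) belongs to that set too.

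Nearness did not always go with a shared pattern. Sfp24C1 (chromosome 2L, 3700674 to 3701092) lies 6768 bases from Acp24A4 on the other strand. It had 61.8, 0.444 and 28.5 CPM in the control and 2.96, 8.77 and 49.8 CPM under overexpression, with the same 3 libraries high as for SP. Sfp33A4, Sfp33A2 and Sfp33A3 lie in a row on 2L with gaps of 226 and 1862 bases and all had the shared order of libraries. Genes of similar sequence can share reads, and how multiply mapped reads were handled was not given in the sources used here, so the split of counts within the Sfp24B, Sfp33A and Acp53 groups is uncertain.

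Counting also limits 3 members whose exons overlap those of another gene. Acp95EF (FBgn0002863, chromosome 3R, 24228975 to 24229279) had 0 counts in every library, which allows up to 0.108 to 0.166 CPM for a count of 3. All 243 of its exon bases are covered by exons of Spase22-23 on the opposite strand, so without strand its reads could not be told from those of Spase22-23. The share of exon bases overlapped was 19.1% in Sfp78E and 3.94% in Sfp84E. The strand setting was not given in the sources used here.

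The question of the design is whether overexpression of miR-2b-1 changed these genes. All 17559 genes were tested between the groups with edgeR's quasi-likelihood method, and 493 (2.81%) had a Benjamini-Hochberg adjusted p under 0.05. Of all genes 1.29% were higher and 1.51% lower. Of the 49 members, 0 were called in either direction by edgeR, and 0 by DESeq2, which called 4.23% of all genes. An unadjusted p under 0.05 was reached by 1 member in edgeR, against 14.7% of all genes, and by 2 in DESeq2. A filter on low counts (filterByExpr) was passed by 41 of the 49.

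The count of 0 has to be read with the errors. The standard error of the log2 fold change was 1.35 to 1.95 in the 38 common members, with a median of 1.81, against a median of 0.198 over the 12441 genes that passed the filter. The fitted log2 value of SP was -0.46 (standard error 1.81, 95% interval -5.39 to 4.47, edgeR adjusted p = 1), from 113 ± 97.3 to 88.0 ± 110 CPM (SD, n = 3 each). For Acp36DE it was -0.64 (interval -5.86 to 4.58) and for Dup99B 0.13 (interval -4.96 to 5.23), both with an edgeR adjusted p of 1. The intervals were wide in both directions, so a difference between the groups within them was not detectable in the 6 pools.

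**Figure D4:**
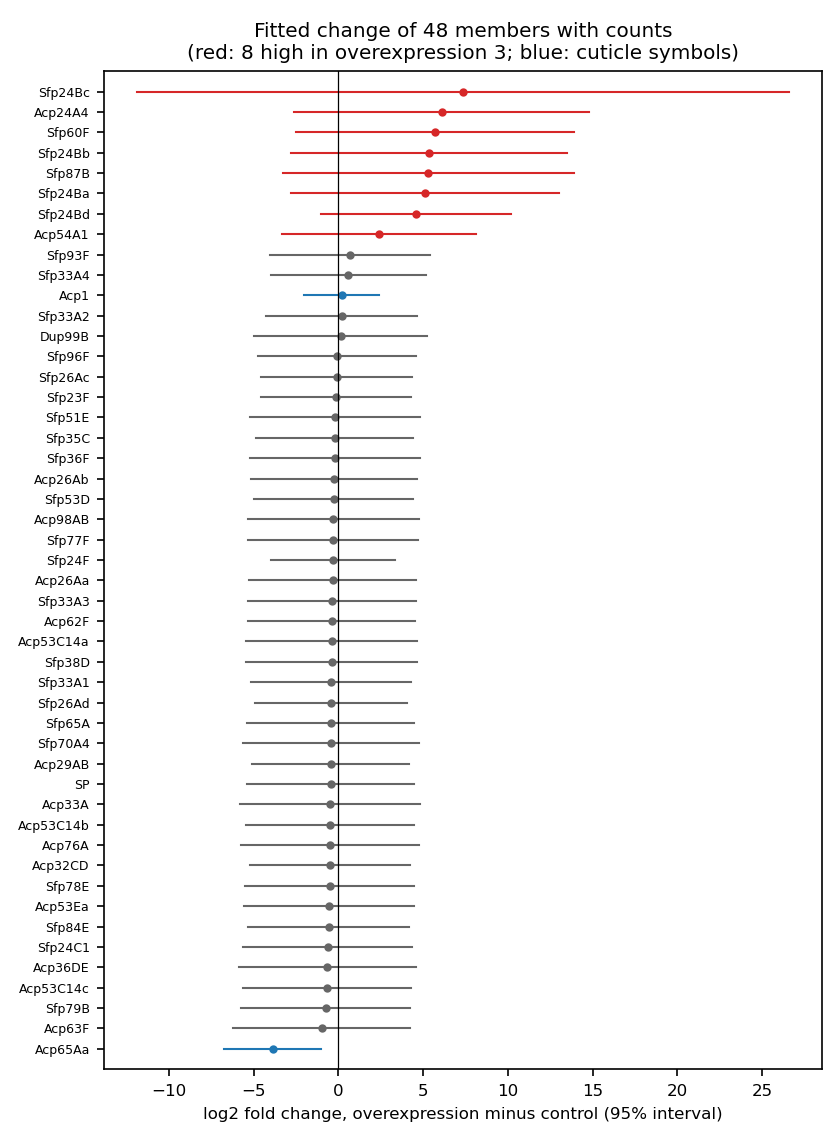
Log2 fold change of 48 members, overexpression minus control, with 95% intervals from the edgeR fit (points, estimates; lines, intervals; Acp95EF, at 0 in every library, is left out). All intervals but that of Acp65Aa include 0, and the 8 members high in overexpression replicate 3 have the widest ones.

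Of the 38 common members, 34 had a negative fold change, with a median of -0.40 and a range of -0.98 (Acp63F) to 0.68 (Sfp93F). Over all 49 members the median was -0.32, and it was 0 over all genes tested and 0.01 over those that passed the filter. Because the common members rise and fall together from pool to pool, these signs are not separate observations. The common members had also been cleared of those far higher in overexpression replicate 3 than in control replicate 1. That choice favours negative values, so nothing is read from the 34 or from -0.40. The 8 other members had positive values, but they had been chosen as high in overexpression replicate 3, so their sign is no finding. Sfp60F was fitted at 5.71 (standard error 3.01, interval -2.48 to 13.90, edgeR adjusted p = 0.514) and Sfp87B at 5.31 (standard error 3.15, interval -3.26 to 13.89, edgeR adjusted p = 0.578), and each rests on 1 library: without overexpression replicate 3 they were fitted at 0.49 and -0.75. For Sfp24Bd the edgeR adjusted p was 0.445, and its control libraries had 1, 0 and 0 counts. Fitted folds of Sfp24Bd, of the other Sfp24B genes and of Acp24A4 depend on the prior count and are no bounds.

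The member with the lowest p was a cuticle gene. Acp65Aa (FBgn0020765) had 12, 1 and 2 counts in the control and 0, 1 and 0 under overexpression, an edgeR adjusted p of 0.161. It was also the 1 member of 49 whose CPM did not overlap between the groups, against 21.6% of all genes. Acp1 (FBgn0014454), the other cuticle gene, had 3, 0 and 8 counts in the control and 2, 2 and 15 under overexpression. Acp65Aa did not have the order of libraries seen in SP, and both genes were close to the floor of 3 counts in most libraries.

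Leaving out single libraries moved the fitted values widely without giving a call. The median over the 49 members went from -0.32 to -2.26 without overexpression replicate 3 and to -0.89 without control replicate 2, while it was 0.39 without control replicate 1, 0.15 without overexpression replicate 1 and 0.00 without overexpression replicate 2. Without control replicate 3 it was -0.18. SP itself ranged from -2.29 to 0.06 over these 6 fits. In each of the 6, 0 members were called.

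**Figure D5:**
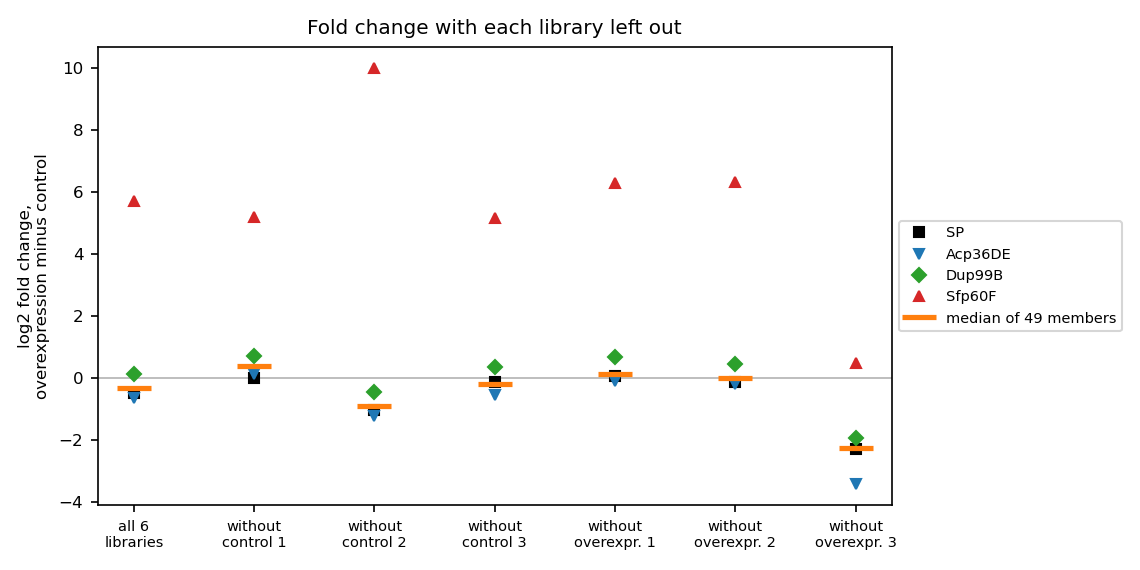
Log2 fold change (overexpression minus control) from edgeR with all 6 libraries and with each left out in turn, for SP, Acp36DE, Dup99B and Sfp60F (symbols) and as the median of the 49 members (bars). The median is lowest, at -2.26, without overexpression replicate 3.

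A second model took a score of accessory gland and duct genes as a covariate, called the accessory gland covariate below. The score was the log2 of the summed CPM of 36 such genes that are not members. Bulb and duct genes such as Ebp, EbpII and Est-6 are among them, so the score is no measure of accessory gland tissue alone. For this score alone, CPM were scaled by the TMM normalization factors of the edgeR fit. This score was 13.27, 8.57 and 12.66 in the control and 9.31, 10.53 and 13.38 under overexpression. With it the median standard error of the members fell from 1.82 to 0.263, and the median log2 fold change was 0.32, with 45 of 49 positive. Genes of the score such as Mst57Da had the library order of SP, so a smaller error followed in part from the choice of score. Fold changes in this model are relative to that score. Without control replicate 2 the same model gave a median of 0.04, with 28 positive and 21 negative, and since the members move together these signs are not separate observations. Both tallies of signs include Acp95EF, which had 0 counts in every library and whose sign is rounding error. In the covariate model with all 6 libraries, SP was at 0.42 (standard error 0.439, edgeR adjusted p = 0.779). Acp26Aa was at 0.25 in that fit (standard error 0.150, edgeR adjusted p = 0.444). Neither was called.

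In that model with all 6 libraries, 2 of the 49 members were called, Sfp24Bc (edgeR adjusted p = 0.000930) and Sfp24Bd (0.0166). Of all genes, 4.19% were called. Both were higher under overexpression, and nearly all their counts were in overexpression replicate 3. The calls depended on the libraries. Without overexpression replicate 3 the same model called 10 members, against 4.66% of all genes, all higher and neither of these 2 among them, with SP at 1.03 (edgeR adjusted p = 0.000947, standard error 0.230) and Acp62F at 1.20 (standard error 0.215, edgeR adjusted p = 7.85e-06). With overexpression replicate 1 left out it called 0 of the 49, against 1.59% of all genes. In that fit Sfp24Bd had no standard error and that of Sfp24Bc was 26637, so the 0 says nothing of these 2 genes. The same model called 2 without control replicate 1 (all genes, 6.41%) and 3 when control replicate 2 was left out (all genes, 1.34%). It called 6 without control replicate 3 (all genes, 6.91%), and 2 without overexpression replicate 2 (all genes, 2.67%). These fits had 5 libraries for 3 terms and were added after the data had been seen.

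The genes that act with sex peptide were looked at next. The sex peptide network is a set of male and female proteins that lets sex peptide bind to stored sperm, and 11 genes on its list, SP included, were found. Of these, 0 were called, 1 had an unadjusted p under 0.05 (hdly), and the median log2 fold change was -0.54. The gene aqrs, which encodes a protease homologue of the network, had 181, 2.91 and 96.7 CPM in the control and 8.71, 20.2 and 156 CPM under overexpression, the pattern of SP. Sems, a gene for the protease seminase, had 38.3, 0.838 and 23.5 CPM in the control and 2.23, 6.13 and 50.0 CPM under overexpression. The gene hdly, with an edgeR adjusted p of 0.132, had 18.2 to 32.6 CPM in the control and 17.6 to 20.4 CPM under overexpression, a narrow range beside that of SP.

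Of the 36 other accessory gland and duct genes, 0 were called and 0 had an unadjusted p under 0.05 in edgeR, with a median log2 fold change of -0.42. This list overlaps the others. It holds aqrs, antr, intr, CG9997, CG17575, lectin-46Ca, lectin-46Cb and Sems of the sex peptide network, and all the duct and bulb genes. The lists are therefore not separate sets, and these shared genes also enter the covariate score. Their summed level was 364 to 9957 CPM in the control and 667 to 10984 CPM under overexpression, and 0 of the 36 were at 0 in all libraries. Mst57Da, the list member with the highest level per kilobase, had 1791, 30.6 and 1028 CPM in the control and 96.0, 263 and 1856 CPM under overexpression. The median log2 ratio of overexpression replicate 3 to control replicate 1 was 0.07 over this list and 0.22 over all members. It was 0.12 over the 38 common members, but these had been chosen on this ratio, so nothing is read from that nearness. The list was not divided in this way. Its highest ratios were those of EbpII (10.9), Ebp (7.63) and Obp56g (6.74), and its lowest was that of msopa (-0.30). Obp56g had 12, 29 and 23 counts in the control and 19, 6 and 2053 under overexpression. The part of accessory gland tissue in the levels of the members was not tested.

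Of 3 transcription factors of the accessory gland, 0 were called. The gene prd (paired), which is required for accessory gland development and function, had 37.9, 13.3 and 32.5 CPM in the control and 35.2, 29.2 and 51.4 CPM under overexpression, a far smaller spread than that of SP. Abd-B, a homeotic gene active in the secondary cells of the gland, had 5.98, 2.91 and 2.85 CPM in the control and 1.78, 2.74 and 4.39 CPM under overexpression. The gene dve had 2.27, 0.493 and 2.31 CPM in the control and 1.296, 0.660 and 3.38 CPM under overexpression, all low values.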

How the data were processed

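RNA from pooled adult testes was sequenced as paired ends. By the study's methods, adaptors and low-quality reads were removed, alignment used RNA STAR, and featureCounts assigned reads to an Ensembl annotation of BDGP6 (dm6). The authors deposited raw counts per gene, 1 file per sample. A deposited table of the authors' own comparison (log2 fold changes and p-values) was not used, nor were 6 per-sample value columns of a table of the whole series. Rows naming no gene numbered 0.

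CPM are counts divided by the library total. Testing used edgeR 4.0.16 under R 4.3.3 (TMM, legacy quasi-likelihood fit, robust prior, no filter, Benjamini-Hochberg over 17559 genes, threshold 0.05). The standard error is the fold change divided by the square root of F. The fit was tested on simulated data. Symbols, positions and exon lengths came from Ensembl release 115, a later annotation of the assembly the authors used, which held 17253 of the genes. The floor was 3 counts.

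Members and lists were chosen with earlier results of these data known. Members with full values were SP, Dup99B, the 10 highest per kilobase, any called, the 5 detected ones farthest from the median log2 ratio of control replicates 1 and 2 (the highest and lowest control libraries), those at 0 and up to 3 with the lowest p in each direction. All other members and the bulb, duct and likeness genes were named after their values were seen. Alternatives were RLE, upper-quartile and no normalization factors, DESeq2 1.42.0, filterByExpr, a prior that is not robust, the newer quasi-likelihood method, a replicate block, an accessory gland covariate, a threshold of 0.01, members without the cuticle genes, and each library left out. The covariate with single libraries left out was added after the data had been seen. No pair of libraries agreed within sampling noise (chi-square per degree of freedom at least 28.0).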

Additional observations from a re-analysis of the deposited data

How the results depend on the processing

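The number of members called was 0 with all 6 libraries and remained 0 under every alternative set at the start other than the accessory gland covariate, which gave 2. In the fits that left out 1 library it was 0 throughout, while the same 6 fits with the covariate, added after the data had been seen, gave between 0 (overexpression replicate 1 left out) and 10 (replicate 3 of that group), with 3 lacking control replicate 2 and 6 lacking control replicate 3. In the covariate fit that gave 0, Sfp24Bc and Sfp24Bd had no usable standard error. The cause of these differences between fits was not tested. The median log2 fold change over members, -0.32, was -0.35 with RLE, -0.39 with upper-quartile factors, -0.23 with library totals alone, -0.36 with DESeq2 and -0.42 with filterByExpr, and ranged from -2.26 to 0.39 without 1 library. It turned positive with the replicate block (0.18) and the covariate (0.32), and with the covariate and 1 library left out it ranged from 0.04 to 0.62. The share of Acp36DE in the member counts, a mean of 20.4% over libraries, was 4.39% when counted per kilobase of exon.

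With the replicate block 0 members were called. Deviations from the group means correlated at -0.58, 0.30 and 0.54 between libraries sharing a number. Whether the replicate numbers pair the samples cannot be told from these values.

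Of 280 values of 19 named members under the alternatives set at the start, 238 kept direction and side of the threshold, 41 changed sign, none of these past the threshold, and 1 became a call (Sfp24Bd with the covariate, 4.82). That tally leaves out the fits with the covariate and 1 library fewer, in which SP (1.03) and Acp62F (1.20) without overexpression replicate 3, and Acp53C14a (0.45) without control replicate 3, changed sign and were called, Sfp24Ba was called without control replicate 2, and Sfp24Bd without control replicate 2, control replicate 3 or overexpression replicate 2. With the block and the covariate, the log2 fold changes were 0.12 and 0.42 for SP, 0.073 and 0.21 for Acp53C14b, 0.072 and 0.15 for Acp53Ea, 0.45 and 0.65 for Acp62F, 0.14 and 0.28 for Acp53C14a, 0.053 and 0.11 for Acp33A, and 0.19 and 0.25 for Acp26Aa. With the covariate they were 0.061 for Sfp26Ad and 0.074 for Sfp79B. Without 1 library the values ranged from -0.77 to 8.24 for Acp24A4, -2.54 to 0.36 for Acp26Aa, -2.92 to 0.13 for Acp33A, -3.41 to 0.12 for Acp36DE, -2.61 to 0.19 for Acp53C14a, -2.64 to 0.15 for Acp53C14b, -2.71 to 0.20 for Acp53Ea, -2.26 to 0.46 for Acp62F, -3.15 to -0.20 for Acp63F, -5.61 to -2.23 for Acp65Aa, -1.93 to 0.73 for Dup99B, -2.29 to 0.064 for SP, -0.72 to 8.91 for Sfp24Ba, -0.60 to 11.05 for Sfp24Bb, 0.95 to 6.68 for Sfp24Bd, -2.38 to 0.26 for Sfp26Ad, 0.49 to 9.998 for Sfp60F, -2.65 to 0.53 for Sfp79B, -0.75 to 9.42 for Sfp87B. Values of the Sfp24B genes and Acp24A4, with controls at or near 0, depend on the prior count and are no bounds. Depth limits Sfp24Bc, Sfp24Bd, Acp1 and Acp65Aa, which had few counts, while in the abundant members the spread between pools exceeded the counting intervals.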

Other observations

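As a description chosen after the values were seen, genes with at least 100 counts in overexpression replicate 3 and a log2 range of at least 4 over the 6 libraries (322 genes) were ranked by the likeness of their log2 CPM to that of 3 members. The 6 points of each comparison are the same libraries, so no p is given. The ranked genes had been filtered for large differences between libraries, so a high r is no finding, and nothing is read from the order of the genes. For genes abundant in overexpression replicate 3 alone, that library dominates r. An example is Sfp24Ba, with 0, 4 and 0 counts in the control and 2, 0 and 225 under overexpression. Most like SP was CG43350 (Pearson r = 0.999 over 6 libraries), with 396, 13 and 355 counts in the control and 54, 126 and 823 under overexpression, followed by the member Sfp78E and by CG43145. Most like Sfp87B was EbpII (r = 0.997), followed by the members Sfp24Bb (0.995), Sfp24Ba (0.978) and Sfp60F (0.978), by Ebp (0.971) and by Acp24A4 (0.960).

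Most like Acp54A1 was CG17242 (r = 0.987), with 156, 14 and 403 counts in the control and 34, 183 and 2601 under overexpression. Spn77Bc, a serpin gene on the list of accessory gland and duct genes, came sixth (r = 0.963), with 559, 79 and 525 counts in the control and 101, 456 and 6539 under overexpression.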
